A study of Mus musculus with 6 samples.

Results

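The genes described here are 10 markers of macrophages and of Kupffer cells, the macrophages that live in the liver: Cd68, Lyz2, Mpeg1, Adgre1, Clec4f, Vsig4, Marco, Csf1r, Cd5l and Timd4. They were taken by gene symbol from a table of 57180 genes, and all 10 were found. Each was measured by RNA sequencing in 6 libraries of primary mouse hepatocytes, 3 labelled LOXP and 3 labelled KO. LOXP cells came from male mice with a floxed Sting1 gene, which encodes the cytosolic DNA-sensing adaptor STING, and KO cells from floxed males that also carried Albumin-Cre. Cells of both groups were exposed to 0.1 mM palmitate (PA), a saturated fatty acid, for 24 h, so no library is untreated. Livers were perfused with collagenase and the hepatocytes were enriched by slow centrifugation and plated. The albumin promoter drives Cre in hepatocytes, so macrophages carried over in such a preparation would keep their Sting1 gene. The labels do not say whether the libraries of a group came from separate mice, so p-values measure the spread between these samples, which may be technical. The mice had a C57BL/6 background and were 8 to 10 weeks old, an age given for all mice of the work and not for these libraries alone.

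Kupffer cells line the liver sinusoids, where they take up bacteria, dead cells and lipoproteins from the blood. Like other tissue macrophages they need signalling through the receptor CSF1R, which binds the cytokines CSF1 and IL-34, and the transcription factor PU.1. Clec4f, Timd4, Vsig4 and Marco are widely used to tell resident Kupffer cells from monocytes that arrive later, while Cd68, Lyz2 and Csf1r are shared by most macrophages. In plated hepatocytes these transcripts are taken as a reading of the immune cell RNA that remains, though which cells made each transcript was not measured.

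The libraries held between 14726983 and 18536985 counted reads. Sting1 itself had 19, 16 and 23 counts in LOXP replicates 1, 2 and 3 and 24, 23 and 15 counts in KO replicates 1, 2 and 3. The groups overlapped, and the log2 fold change (KO against LOXP) was -0.08 (SE 0.298, edgeR's quasi-likelihood test, adjusted p = 0.883). Which exons were deleted is not given in the sources used here, and exons outside the deletion can still give reads. The labels could thus not be checked this way, and the groups are called the libraries labelled LOXP and KO. By RT-PCR of purified hepatocytes, the paper reports that Sting mRNA was lost in the knockout. Albumin (Alb) reached 6468 to 7791 FPKM (fragments scaled by transcript length and library depth) in every library, and the summed FPKM of 18 hepatocyte genes was 10959 to 11358 in LOXP and 9326 to 9530 in KO libraries. Of 15 lymphocyte markers, 14 had no count in any library, and the 15 together had 4 counts. The 11 neutrophil markers had 9, 10 and 6 counts in the LOXP libraries and 0, 2 and 1 in the KO libraries. Of these, Mmp8 alone had 7, 2 and 4 counts in the LOXP libraries and 0, 0 and 0 in the KO libraries.

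The 10 markers were detected in all 6 libraries but at very different levels. On the FPKM scale, which divides by transcript length and so allows genes to be compared, Cd68 had a mean of 29.3 over the 6 libraries, followed by Lyz2 at 7.92, Mpeg1 at 5.48, Marco at 4.12, Cd5l at 3.96 and Clec4f at 1.66. Vsig4 (0.799 FPKM), Adgre1 (0.688 FPKM), Csf1r (0.584 FPKM) and Timd4 (0.0873 FPKM) stayed under 1. Among neighbours in this order, the ranges over libraries were apart only for Cd68 and Lyz2 and for Csf1r and Timd4. Marco exceeded Cd5l in 3 of the 6 libraries, and Vsig4 exceeded Adgre1 in 4 of 6. The ratio of Cd68 to Csf1r, both in FPKM, was 62.1, 56.4 and 66.9 in LOXP replicates 1, 2 and 3 and 33.2, 40.4 and 40.2 in KO replicates 1, 2 and 3. The general macrophage marker Cd68 thus stood far above the lineage receptor Csf1r in every library, and less far in the libraries labelled KO. The ratio of Lyz2, another general marker, to Csf1r went the other way. It was 11.3, 11.8 and 12.90 in LOXP replicates 1, 2 and 3 and 12.92, 15.4 and 17.9 in KO replicates 1, 2 and 3.

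Added together, the 10 markers took 0.00968% (KO replicate 3) to 0.0151% (LOXP replicate 3) of the counted reads, with exact 95% binomial intervals of 0.00921 to 0.0102% and 0.0145 to 0.0157%. These intervals, and the others below on counts, cover counting error only. Their summed FPKM was 0.675 to 0.858% of that of Alb. Their summed level was 141, 143 and 152 CPM (counts scaled to library size, with trimmed mean of M-values factors, TMM) in LOXP replicates 1, 2 and 3 and 109, 112 and 94.7 CPM in KO replicates 1, 2 and 3. The groups did not overlap, with means of 145 ± 6.05 and 105 ± 8.98 CPM (SD, n = 3 each) and a ratio KO to LOXP of 0.722. Cd68 alone supplied 39.2 to 56.1% of that sum. Without Cd68 the other 9 markers summed to 68.3, 62.9 and 68.5 CPM in LOXP and 66.0, 64.3 and 55.2 CPM in KO libraries. These values overlapped and their ratio was 0.929. On the FPKM scale the corresponding ratios were 0.762 with Cd68 and 1.07 without it, so the direction of the sum depended on the scale once Cd68 was left out.

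**Figure D1:**
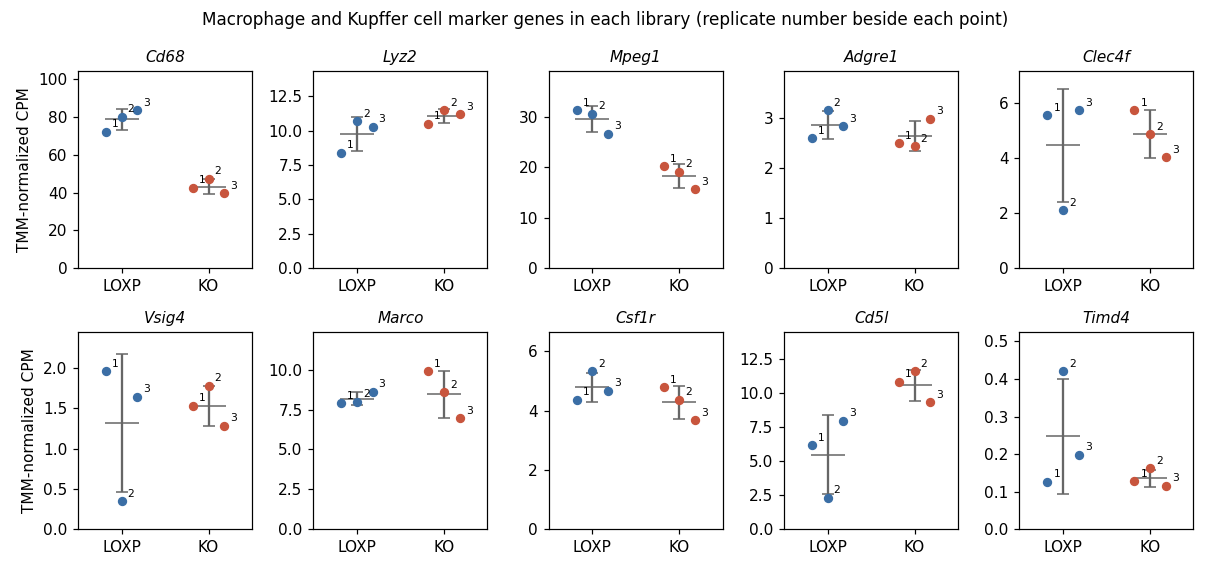
TMM-normalized CPM of each of the 10 markers (vertical axes, each starting at 0) in the 3 LOXP (blue) and 3 KO (red) libraries, 1 panel per gene; numbers beside the points are replicate numbers, horizontal lines are group means and bars are SD. Cd68 and Mpeg1 lie lower and Cd5l higher in all KO libraries, the other genes overlap, and LOXP replicate 2 lies far below its group for Clec4f, Vsig4 and Cd5l.

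Of the 10 markers, 9 passed the filter on low counts and were tested among 14151 genes, and Timd4 did not pass. At an adjusted p under 0.05, 2 of the 9 were called, Cd68 and Mpeg1, both lower in the libraries labelled KO, and none was higher. Over all tested genes 23.1% were called, 11.6% lower and 11.5% higher, so the share among the markers is near the background. The groups did not overlap for 3 of the 9, Cd68 and Mpeg1 lower and Cd5l higher, against 40.7% of all tested genes (20.3% lower and 20.4% higher). The median log2 fold change of the 9 was 0.05, with 4 below and 5 above 0, and that of all tested genes was -0.0021. By the study's 3 criteria (adjusted p under 0.05, an absolute log2 fold change over 1 and a group mean over 1 FPKM), edgeR's quasi-likelihood test called 0 of the 9 and DESeq2 also 0, beside 2.05% of all tested genes (1.49% lower and 0.558% higher). At an unadjusted p under 0.05, 3 of the 9 passed, Cd5l being the third. The share of all tested genes passing there was not counted. It is at least the 23.1% called after adjustment, so the 3 are not read as an excess. With 3 libraries a group, the exact two-sided permutation test of a single gene cannot give a p under 0.1.

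**Figure D2:**
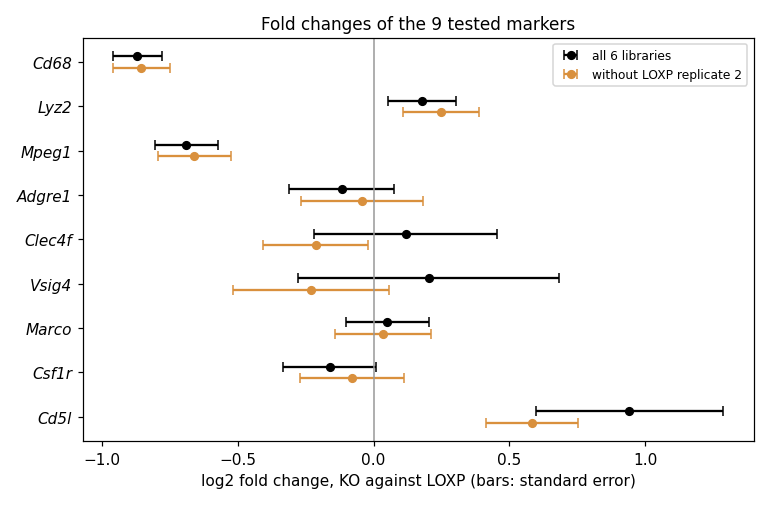
Log2 fold change of KO against LOXP (horizontal axis) for the 9 tested markers, with SE as bars, from all 6 libraries (black) and without LOXP replicate 2 (orange). Cd68 and Mpeg1 lie left of 0 in both fits and Cd5l right of 0, while Clec4f and Vsig4 move from right to left of 0 when LOXP replicate 2 is left out.

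The 3 most abundant markers act inside the macrophage's lysosomes and phagosomes or at its defence against bacteria: Cd68 encodes a heavily glycosylated membrane protein of endosomes and lysosomes, Lyz2 the lysozyme that cuts bacterial cell walls, and Mpeg1 the pore-forming protein perforin-2. The sequences before their starts are shown because these genes are markers of the same cell type, but Cd68 and Mpeg1 were called lower and Lyz2 was not called. Each run is the 250 bases before the RefSeq gene start on build GRCm38.p6, 5′ to 3′ on the gene's strand, with the letters GAGGAA in capitals where they, or TTCCTC for the other strand, occur. GAGGAA is the core of purine-rich sites that PU.1 can bind. The windows are chr11:69666171-69666420 (minus strand) for Cd68, chr10:117282273-117282522 (minus strand) for Lyz2 and chr19:12460520-12460769 (plus strand) for Mpeg1.
Cd68: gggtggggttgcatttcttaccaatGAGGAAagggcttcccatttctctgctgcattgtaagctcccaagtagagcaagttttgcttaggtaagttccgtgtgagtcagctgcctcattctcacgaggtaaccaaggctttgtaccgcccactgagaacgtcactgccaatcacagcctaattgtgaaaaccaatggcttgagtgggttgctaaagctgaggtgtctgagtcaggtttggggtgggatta
Lyz2: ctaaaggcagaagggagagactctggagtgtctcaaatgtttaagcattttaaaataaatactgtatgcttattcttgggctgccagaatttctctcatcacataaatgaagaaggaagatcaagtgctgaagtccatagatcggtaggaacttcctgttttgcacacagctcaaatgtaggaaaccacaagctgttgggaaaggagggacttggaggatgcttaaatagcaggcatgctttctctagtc
Mpeg1: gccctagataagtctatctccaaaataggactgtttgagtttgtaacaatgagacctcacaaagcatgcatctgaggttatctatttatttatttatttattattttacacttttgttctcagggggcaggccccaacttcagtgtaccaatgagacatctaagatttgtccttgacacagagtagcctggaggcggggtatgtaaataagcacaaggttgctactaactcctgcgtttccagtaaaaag
The letters occurred once in the Cd68 window and not in those of Lyz2 and Mpeg1. The RefSeq promoter table matched 8 of the 10 markers, all but Csf1r and Adgre1, and 4 of these 8 held the letters on either strand (Cd68, Vsig4, Marco and Cd5l), beside 23.3% of all 32851 promoters of the table. A match describes the letters of the window and is not evidence of a binding site.

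Cd68 (ENSMUSG00000018774, chromosome 11, 69555039 to 69556979) had the lowest adjusted p among the 9 tested markers. It was at 72.3, 80.2 and 83.6 CPM in LOXP replicates 1, 2 and 3 and at 42.5, 47.2 and 39.5 CPM in KO replicates 1, 2 and 3. Every KO library lay below every LOXP library, and the gap between the groups was wider than the spread within either. The means were 78.7 ± 5.80 and 43.1 ± 3.87 CPM (SD, n = 3 each), a log2 fold change of -0.87 (SE 0.0896, 95% interval -1.07 to -0.66) or 0.548 times the LOXP level, with an adjusted p of 4.21e-04 by edgeR's quasi-likelihood test. In a bulk sample, fewer cells of a type and less RNA per cell cannot be told apart, and the cells that made a transcript are not known. Hepatocyte genes as a list also moved: 13 of 18 fell at an adjusted p under 0.05 and none rose. Over all tested genes 11.6% fell and 11.5% rose at that threshold. The hepatocyte genes had a median log2 fold change of -0.45. Their part in the difference of Cd68 was not tested.

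Mpeg1 (ENSMUSG00000046805, chromosome 19, 12438143 to 12442647) moved the same way. Its levels were 31.2, 30.6 and 26.5 CPM in the LOXP libraries and 20.1, 19.0 and 15.6 CPM in the KO libraries. The lowest LOXP library was above the highest KO library. The means of 29.4 ± 2.54 and 18.3 ± 2.35 CPM (SD, n = 3 each) gave a log2 fold change of -0.69 (SE 0.116, 95% interval -0.95 to -0.42), 0.620 times the LOXP level, with an adjusted p of 0.00401 in the edgeR fit. For both Cd68 and Mpeg1 the exact permutation p was 0.1, the smallest this design allows.

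Lyz2 (ENSMUSG00000069516, chromosome 10, 117113236 to 117118226) did not share that pattern. It had 8.39, 10.7 and 10.3 CPM in the LOXP libraries and 10.5, 11.5 and 11.2 CPM in the KO libraries, so that KO replicate 1 lay inside the LOXP range. The log2 fold change was 0.18 (SE 0.126, 95% interval -0.11 to 0.47) with an adjusted p of 0.353 by edgeR, and the interval lies above those of Cd68 and Mpeg1. Lyz1, a near-identical neighbouring copy expressed in Paneth cells of the gut, had 2, 3 and 2 counts in LOXP and 0, 4 and 2 counts in KO libraries, and reads shared between the copies could be assigned to either.

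The genes on either side of Cd68 lie on the same strand in the GENCODE M21 annotation of GRCm38, so strand would not separate their reads, and whether the counting used strand is not given in the sources used here. Eif4a1, which encodes an RNA helicase of translation initiation and lies 782 bases from Cd68 in the deposited coordinates, had 252, 258 and 260 CPM in LOXP and 361, 337 and 335 CPM in KO libraries. It rose by a log2 fold change of 0.42 (SE 0.0515, edgeR adjusted p = 9.05e-04), the opposite direction to Cd68. Mpdu1, which acts in the making of sugar chains for glycoproteins and lies 1570 bases away on the other side, had 103, 93.4 and 91.3 CPM in LOXP and 67.4, 76.5 and 70.3 CPM in KO libraries. Mpdu1 fell, with a log2 fold change of -0.43 (SE 0.0775, edgeR adjusted p = 0.00584). Reads of these neighbours in the counts of Cd68 were not tested. Near Mpeg1, the gene Dtx4 lies 1054 bases away on the opposite strand and had a log2 fold change of -0.12 (edgeR adjusted p = 0.296).

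**Figure D3:**
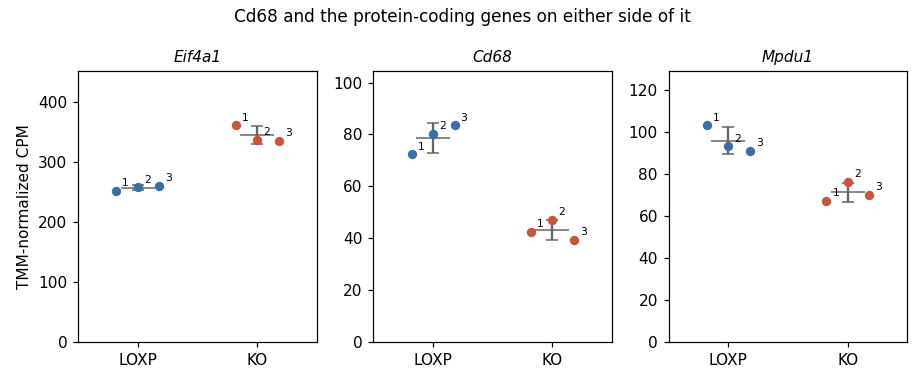
TMM-normalized CPM (vertical axes from 0) of Eif4a1, Cd68 and Mpdu1, the protein-coding genes next to each other on chromosome 11, in LOXP (blue) and KO (red) libraries with replicate numbers, group means and SD bars. Cd68 and Mpdu1 are lower and Eif4a1 is higher in all 3 KO libraries.

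None of the 3 tested receptors that capture particles or cells, Marco, Clec4f and Vsig4, was called in the edgeR fit, and each also had an unadjusted p over 0.05. Marco (ENSMUSG00000026390, chromosome 1, 120402267 to 120432753), a scavenger receptor for bacteria and particles, had 7.89, 7.97 and 8.63 CPM in LOXP and 9.88, 8.58 and 6.94 CPM in KO libraries. The KO libraries lay on both sides of the LOXP range, and the log2 fold change was 0.05 (SE 0.153, 95% interval -0.30 to 0.40, edgeR adjusted p = 0.847). Changes of the sizes measured for Cd68 and Mpeg1 lie outside that interval.

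Clec4f (ENSMUSG00000014542, chromosome 6, 83621524 to 83633169) encodes a C-type lectin found on mouse Kupffer cells, and Vsig4 (ENSMUSG00000044206, chromosome X, 95290809 to 95337044) a complement receptor that clears opsonized bacteria from the blood. Clec4f had 5.55, 2.10 and 5.73 CPM in LOXP replicates 1, 2 and 3 and 5.74, 4.86 and 4.02 CPM in the KO libraries. Vsig4 had 1.96, 0.350 and 1.65 CPM in LOXP replicates 1, 2 and 3, the second from 5 counts, and 1.53, 1.78 and 1.28 CPM in the KO libraries. In both genes LOXP replicate 2 was the lowest of the 6 libraries and the other LOXP libraries overlapped the KO libraries. The log2 fold changes were 0.12 (SE 0.336, edgeR adjusted p = 0.840) for Clec4f and 0.20 (SE 0.479, edgeR adjusted p = 0.804) for Vsig4. Without LOXP replicate 2 both turned negative, to -0.21 (adjusted p = 0.501) and -0.23 (adjusted p = 0.635).

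Timd4 (ENSMUSG00000055546, chromosome 11, 46701627 to 46735159), the phosphatidylserine receptor by which resident Kupffer cells bind dying cells, had 2, 6 and 3 counts in LOXP and 2, 3 and 2 counts in KO libraries. Pooled over each group this made 11 against 7 counts, a depth-scaled ratio KO to LOXP of 0.562 with an exact interval of 0.185 to 1.59. A difference in Timd4 was not detectable at this depth.

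Cd5l (ENSMUSG00000015854, chromosome 3, 87265188 to 87278380) encodes a secreted protein of tissue macrophages, also called AIM, that binds bacterial and lipid ligands. Its level was 6.18, 2.31 and 7.97 CPM in LOXP replicates 1, 2 and 3 and 10.8, 11.6 and 9.33 CPM in KO replicates 1, 2 and 3. All KO libraries were above all LOXP libraries, though KO replicate 3 stood closer to LOXP replicate 3 than LOXP replicate 2 did. The means were 5.49 ± 2.89 and 10.6 ± 1.16 CPM (SD, n = 3 each) and the log2 fold change was 0.94 (SE 0.344, 95% interval 0.16 to 1.73), 1.92 times the LOXP level. It did not pass in the edgeR fit, with an adjusted p of 0.0853, nor in the exact permutation test (p = 0.1). The call changed in 3 analyses. DESeq2 gave 0.95 with an adjusted p of 0.0136, edgeR without LOXP replicate 2 gave 0.58 with 0.0490, and edgeR without LOXP replicate 3 gave 1.30 with 0.0448. Over the other alternatives to the edgeR fit the adjusted p of Cd5l reached 0.198. Beside Marco, a second transcript of similar FPKM, Cd5l was at 0.775, 0.286 and 0.913 times the Marco level in LOXP replicates 1, 2 and 3 and at 1.08, 1.34 and 1.33 times in KO replicates 1, 2 and 3.

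The lineage markers were low and close between groups. Csf1r (ENSMUSG00000024621, chromosome 18, 61233670 to 61265221), the receptor macrophages need to survive, had 4.35, 5.31 and 4.67 CPM in LOXP and 4.78, 4.37 and 3.67 CPM in KO libraries. Adgre1 (ENSMUSG00000004730, chromosome 17, 57665691 to 57790527), which encodes the surface antigen F4/80, had 2.59, 3.15 and 2.83 CPM in LOXP and 2.49, 2.43 and 2.97 CPM in KO libraries. In both genes the libraries of the groups overlapped. The log2 fold changes were -0.16 (SE 0.171, 95% interval -0.55 to 0.23, edgeR adjusted p = 0.551) for Csf1r and -0.12 (SE 0.194, 95% interval -0.56 to 0.33, edgeR adjusted p = 0.714) for Adgre1. Csf1r overlaps the gene Hmgxb3 on the opposite strand by 873 bases, so reads there could count for either where strand was not used. Hmgxb3 had a log2 fold change of 0.05 (edgeR adjusted p = 0.707).

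The ligands of Csf1r were measured in the same libraries. Csf1 had 120, 199 and 128 CPM in LOXP and 137, 148 and 149 CPM in KO libraries, where LOXP replicate 2 was the highest, and a log2 fold change of -0.04 (edgeR adjusted p = 0.885). Il34 had 5.995, 10.7 and 9.88 CPM in LOXP and 4.21, 5.18 and 3.73 CPM in KO libraries. All KO libraries lay below the LOXP libraries for Il34, and it fell by 1.01 on the log2 scale (edgeR adjusted p = 0.0176), a call lost without LOXP replicate 3, KO replicate 1 or KO replicate 3 (adjusted p = 0.0597, 0.0578 and 0.0629). Of the 13 tested genes in a list of macrophage growth factors and regulators, 2 fell and 1 rose at an adjusted p under 0.05, a share equal to the 23.1% of all tested genes, and the median log2 fold change was -0.01. Besides Il34 the genes that passed were Id3, a transcriptional regulator that Kupffer cells need but that many cells express (-0.83, edgeR adjusted p = 0.00376), and Runx1, named after its values were seen (0.51, edgeR adjusted p = 0.0423). The call of Runx1 was lost without LOXP replicate 1 or any 1 KO library, with adjusted p from 0.0608 to 0.121, and under 2 other settings.

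Other macrophage genes lay on both sides of 0. Of 22 listed, 19 were tested, 10 below and 9 above 0, with a median log2 fold change of -0.03. Of the 19, 2 passed, beside 11.6% of all tested genes called lower and 11.5% called higher. The 2 that passed, both lower, were Itgam (-2.01, edgeR adjusted p = 0.0193), a subunit of an integrin of myeloid cells, and Siglec1 (-1.75, edgeR adjusted p = 0.0277), a sialic acid receptor of resident macrophages. Both were named after their values were seen and stayed under 5 CPM in every library. The call of Itgam was lost when any library but LOXP replicate 1 was left out (edgeR adjusted p 0.0517 to 0.0692), and that of Siglec1 without LOXP replicate 1 or 3 or KO replicate 1 or 2 (0.0697 to 0.0939). The most abundant of the list, Cd14, a co-receptor for bacterial lipopolysaccharide, had a mean of 36.9 FPKM and a log2 fold change of -0.03 (edgeR adjusted p = 0.840). The complement genes C1qa and C1qb, made by tissue macrophages, had log2 fold changes of -0.34 and -0.15 (edgeR adjusted p = 0.598 and 0.722), and the lysosomal protease Ctss one of 0.40 (edgeR adjusted p = 0.144). C1qa moved to -0.72 without LOXP replicate 2 (adjusted p = 0.0554) and to -0.062 without LOXP replicate 3 (adjusted p = 0.942). The summed level of the 22 listed genes, 58.5 to 65.2 FPKM in LOXP and 58.7 to 63.7 FPKM in KO libraries, overlapped between groups. Most of it was Cd14 alone, at 33.7 to 40.6 FPKM in LOXP and 35.9 to 38.9 FPKM in KO libraries. The 10 markers summed to 59.7 to 66.3 FPKM in LOXP and 43.6 to 49.9 FPKM in KO libraries.

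**Figure D4:**
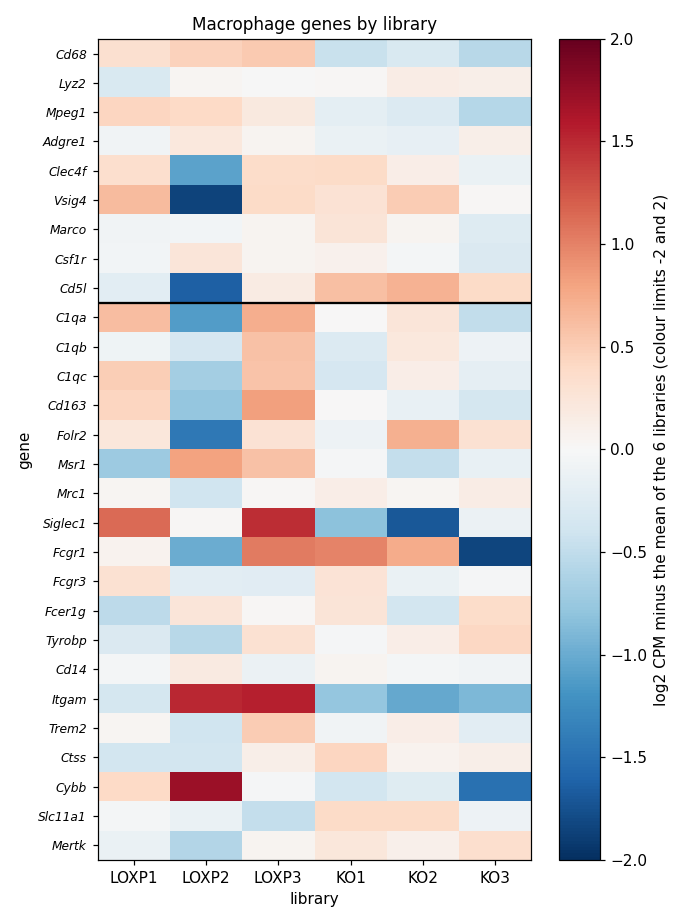
Log2 CPM minus the mean of the 6 libraries (colour scale, red above and blue below that mean) for the 9 tested markers (above the line) and the 19 other tested macrophage genes (below it), 1 column per library. Cd68 and Mpeg1 change from red to blue between LOXP and KO, and the LOXP2 column is blue for Clec4f, Vsig4, Cd5l and C1qa and red for Itgam and Cybb.

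LOXP replicate 2 stood apart from its group in genes tied to Kupffer cells. This library was singled out with its values known, so the counts, shares and intervals given for it below are descriptions and not tests. Its level relative to LOXP replicates 1 and 3 pooled was 0.372 for Clec4f (exact 95% interval 0.244 to 0.550), 0.327 for Cd5l (0.220 to 0.473) and 0.194 for Vsig4 (0.0606 to 0.480). The remaining markers were not lower: Cd68 stood at 1.03 (0.960 to 1.11), Mpeg1 at 1.06 (0.940 to 1.19), Marco at 0.966 (0.768 to 1.21) and Csf1r at 1.18 (0.879 to 1.57), and Lyz2, Adgre1 and Timd4 also had intervals that included 1. Marco is a Kupffer cell receptor too, so the marker genes of that cell did not move as one in this library. LOXP replicate 2 was the lowest of the 6 libraries for 3 of the 9 tested markers and for 10 of the 19 other macrophage genes, against 17.6% of all tested genes. It was under 0.5 times the next lowest library for 2 of the 9, Vsig4 and Cd5l, against 0.629% of all tested genes. Among the other macrophage genes the ratio was 0.289 for C1qa (0.194 to 0.420) and 0.651 for C1qb (0.471 to 0.887), but 1.19 for Cd14 (1.12 to 1.27) and, named after its values were seen, 2.84 for Cybb (2.15 to 3.76), a subunit of the phagocyte oxidase.

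The same library was higher in many but not all transcripts of a list of macrophage products, which other cells can also make. Il1b, the gene of interleukin-1 beta, had 75 counts in LOXP replicate 2 and 0 in each of the other 5 libraries. Tnf had 0, 73 and 6 counts in LOXP replicates 1, 2 and 3 and 6, 9 and 10 in the KO libraries, and Il6 had 1, 29 and 4 against 2, 0 and 0. Il1a, encoding interleukin-1 alpha, had 11, 109 and 14 counts in the LOXP libraries and 8, 7 and 7 in the KO libraries. The chemokine gene Ccl2 had 331, 1253 and 387 CPM in LOXP and 200, 206 and 202 CPM in KO libraries. Of the 5 tested genes of this list, 4 were highest in LOXP replicate 2, against 17% of all tested genes, and 3 were over 2 times the next highest library, against 0.417%. Il18, the gene of interleukin-18, was not higher (0.863 times LOXP replicates 1 and 3 pooled, exact 95% interval 0.558 to 1.31), nor was Nos2, the inducible nitric oxide synthase (0.493, 0.146 to 1.33), both named after their values were seen. Of these 5, Ccl2 passed the group comparison, with a log2 fold change of -1.70 (edgeR adjusted p = 0.0277). Without LOXP replicate 2 that change was -0.82 (adjusted p = 4.22e-04), and the call was lost without any 1 KO library (adjusted p 0.0818 to 0.0827) and under 3 other settings (0.0519 to 0.0644). The part of this library's state in the levels of Clec4f, Vsig4 and Cd5l was not tested.

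**Figure D5:**
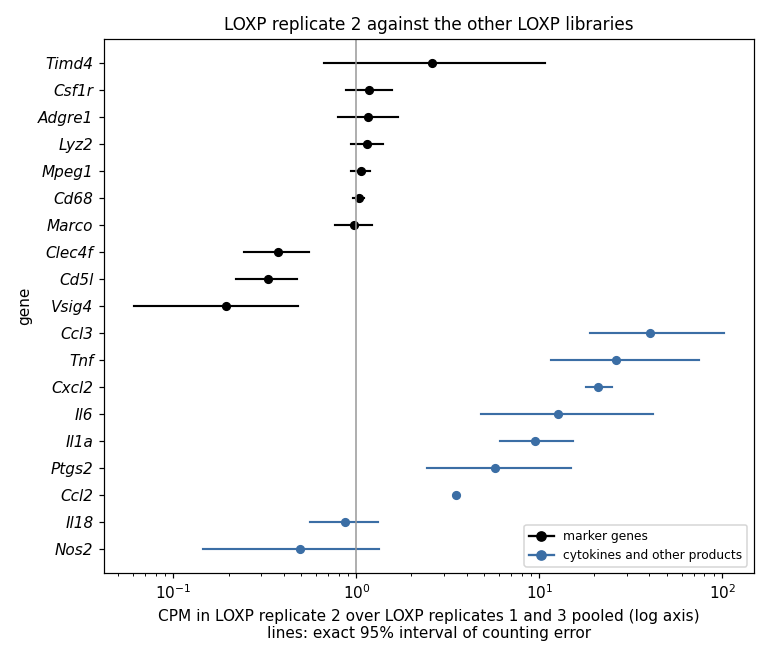
CPM in LOXP replicate 2 divided by that in LOXP replicates 1 and 3 pooled (horizontal log axis) for the 10 markers (black) and for cytokines and other products of macrophages (blue), with exact 95% intervals of counting error as lines; products with 3 or fewer counts on either side, Il1b among them, are not drawn. Vsig4, Cd5l and Clec4f lie below 1, the other markers span 1, and Tnf, Il6, Il1a and Ccl2 lie above it, while Il18 and Nos2 span 1.

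Markers of the remaining liver cell types were compared on the same scale as the macrophage genes. The shares to set beside the counts that follow are 11.6% of all tested genes called lower and 11.5% called higher. Of 14 tested markers of sinusoidal endothelial cells, 1 fell (Stab2, -0.49, edgeR adjusted p = 0.00445, named after its values were seen) and the summed level of all 15 listed was 36.7 to 40.4 FPKM in LOXP and 34.9 to 38.2 FPKM in KO libraries. None of 10 tested stellate cell markers passed in edgeR. At an unadjusted p under 0.05, 1 of them passed, where at least 23.1% of all tested genes did. The sums of all 14 listed, 19.1 to 21.2 FPKM in LOXP and 19.8 to 21.8 FPKM in KO libraries, overlapped. The 8 listed markers of bile duct cells summed to 119 to 140 FPKM in LOXP and 61.9 to 72.9 FPKM in KO libraries, of which the tight junction gene Cldn4 alone supplied 83.1 to 84.4%. Of the 4 tested, 3 fell and 1 rose, the keratin gene Krt19 (0.82, edgeR adjusted p = 0.0479), both genes named after their values were seen. The call of Krt19 was lost without any 1 library but LOXP replicate 1 (adjusted p 0.082 to 0.152). Of 8 tested genes of leukocytes in general, 1 fell and 1 rose, with a median log2 fold change of 0.25. The fall of Cd68 and Mpeg1 was accompanied by lower sums of hepatocyte genes, mostly Alb, and of bile duct genes, mostly Cldn4. The sums of other macrophage (mostly Cd14), leukocyte, endothelial and stellate genes overlapped between the groups. The leukocyte sum was 10.8 to 13.2 FPKM in LOXP and 10.3 to 14.7 FPKM in KO libraries. Lcp1 alone had 5.51 to 7.29 FPKM in LOXP and 4.40 to 6.64 FPKM in KO libraries. What these sums say of cell numbers was not tested.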

How the data were processed

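RNA of 6 hepatocyte libraries was sequenced as 150-bp pairs per the study's methods. The deposited table holds raw counts per gene and FPKM values that the authors computed per length and depth; the submitters' processing notes name fastp, HISAT2, StringTie, edgeR and build GRCm39. The counting tool, annotation release and strand setting are not given in the sources used here. From the counts, genes passing filterByExpr (minimum count 10; 14151 of 57180) were fitted with edgeR 4.0.16 in R 4.3.3 (TMM, quasi-likelihood test, 3 LOXP against 3 KO libraries, Benjamini-Hochberg adjustment over all tested genes). Library totals were 14726983 to 18536985 counts. Intervals of count ratios and shares are exact (binomial, 95%). FPKM served for levels between genes, summed levels of gene lists, the study's threshold and the limma fits. Alternatives were DESeq2 1.42.0, limma 3.58.1 on log2(FPKM + 1) and log2(FPKM + 0.1), other filters and scaling, a replicate block and leaving out each library. The code was tested on simulated data. Coordinates of genes are as deposited; strands and promoters come from GRCm38 tables. Genes to be named were the 10 markers, the 4 most abundant (2 for other cell types) of each list, Csf1, Il34 and 5 cytokines. Neighbours within 5000 bases, Lyz1 and the 3 nearest profiles were added. Many of these were left unmentioned. Any gene named beyond these is said to have been picked with its values known. The markers and lists were chosen with earlier results of these data known.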

Additional observations from a re-analysis of the deposited data

How the results depend on the processing

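Cd68 (log2 fold change -0.94 to -0.81) and Mpeg1 (-0.76 to -0.55) kept their direction and their call in 13 of 13 alternatives, and 2 to 3 markers were called in each. The number of markers meeting the study's 3 criteria was 0 to 1 when single libraries were left out, Cd5l being the 1 without LOXP replicate 3, and 0 under the other alternatives. Called genes among the other macrophage genes numbered 2 in the edgeR fit, 3 with DESeq2 and 1 when every library needed at least 10 counts. They numbered 0 with limma at either FPKM pseudocount (1 or 0.1) and 0 to 2 when single libraries were left out. The share of all tested genes called was counted for the edgeR fit only (23.1%). Counts of calls under the alternatives, of markers and of other macrophage genes, thus have no background beside them. The summed level of the markers (KO to LOXP, 0.722) was 0.929 without Cd68 and 0.700 to 0.758 without single libraries. Leaving out single libraries changed the sign of uncalled genes: Clec4f ranged from -0.21 to 0.34, Vsig4 from -0.23 to 0.60, Marco from -0.069 to 0.18, Cd14 from -0.092 to 0.061, C1qb from -0.32 to 0.17, Csf1 from -0.18 to 0.22, Sting1 from -0.26 to 0.11 and Hmgxb3 from -0.000285 to 0.10. With limma at pseudocounts of 1 and 0.1, Cd14 was 0.0093 and 0.0096 and Csf1 0.026 and 0.028. Krt19 lost its call in 8 alternatives, Itgam in 7, Siglec1, Runx1 and Ccl2 in 6 each and Il34 in 3, and the causes were not tested. The replicate numbers shared by the groups were taken as names, though whether they mark pairs is not known. Deviations from the group means correlated at 0.12, 0.0834 and 0.0134 for replicates 1, 2 and 3. Each KO library correlated best with the LOXP library of its own number, KO replicate 3 by little (0.00988 with LOXP replicate 1). LOXP replicate 3 correlated better with KO replicate 2 (0.0459) than with its own number. With a replicate block 2 markers and 3 other macrophage genes were called. Timd4, Vsig4 and Adgre1 are limited by counts of 51 or fewer per library.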

Other observations

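Of 19 tested lysosome genes, which macrophages and hepatocytes both express, 16 had a log2 fold change below 0 and 4 fell at an adjusted p under 0.05 in edgeR's quasi-likelihood test, beside 11.6% of all tested genes called lower. The groups did not overlap for 8 of the 19, all lower in KO libraries. Over all tested genes 20.3% were apart in that direction and 40.7% in either. The median log2 fold change of the list was -0.11, while Cd68, a protein of the same compartment, was at -0.87. The 4 were Lamp2 (-0.35), Ctsb (-0.20), Gla (-0.33) and Grn (-0.32), named after their values were seen. Lamp2 and Grn kept the call in 13 of 13 alternatives, while Ctsb lost it in 8, among them without any 1 library but LOXP replicate 1, and Gla in 10, among them without any 1 library but LOXP replicate 3. The summed level of the list, 1850 to 2041 FPKM in LOXP and 1866 to 1942 FPKM in KO libraries, overlapped between the groups. Its 4 most abundant genes, Ctsz, Lamp1, Psap and Ctsd, were not called and had log2 fold changes of -0.02, -0.12, -0.04 and 0.03.

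Likeness of profile was measured as the Euclidean distance of centred log2 CPM over the 6 libraries, among 14150 other tested genes. The genes nearest to Cd68 were Gcgr, the glucagon receptor of hepatocytes (distance 0.127, log2 fold change -0.78), Clu, a secreted chaperone (0.130, -0.90), and F7, a clotting factor made by the liver (0.145, -0.77). The nearest to Mpeg1 were Tceal8 (0.152), Fam187b (0.174) and Zfp612 (0.180), and the nearest to Lyz2 were Agap1 (0.0689), Htra2 (0.0820) and Timm23 (0.0866). None of these 9 is on the macrophage lists. Those lists hold few of the 14150 genes, so this cannot tell which cells made the transcripts.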
